A study of Homo sapiens with 4 samples.

Results

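The proteasome genes measured here were the 48 genes whose symbols run from PSMA to PSMG with a number, taken by symbol from 25411 gene rows. This family was chosen with earlier results of these data known. They encode the rings of the core particle, the regulatory cap, the immunoproteasome subunits, the other activators, an inhibitor and the assembly chaperones. RNA was sequenced from BEAS-2B, an immortalised human bronchial epithelial line, after 72 h of culture. The control group had 2 libraries from cells grown without added metal, and the cadmium group had 2 libraries from cells given 5 µM cadmium chloride in the medium. No genetic change is named in the labels for either group, and they do not say that libraries of a group came from separate cultures. The p-values therefore rest on a spread among libraries that may be technical. The labels place both controls in experiment 1 and both cadmium libraries in experiment 2, so that treatment and experiment cannot be told apart.

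The proteasome is the protease that degrades most short-lived and damaged proteins of the cell after they have been marked with ubiquitin. Its core is a stack of rings in which alpha subunits form the gate and beta subunits carry the catalytic sites. The cap binds ubiquitin chains, and its ATPases unfold the substrate and thread it into the core. Interferon exchanges the constitutive catalytic subunits for immunoproteasome subunits, which favour peptides that fit MHC class I molecules. When the proteasome is impaired, the transcription factor NFE2L1 is known to raise transcription of its subunits through antioxidant response elements, and cadmium is a metal that damages thiol-containing proteins.

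Between 8609243 and 29937242 reads were assigned to genes per library, with control replicate 2 the shallowest. KRT8 and KRT18, keratins of simple epithelium, stood at a mean of 276 and 140 RPKM in the controls, whereas EPCAM and CDH1, defining epithelial genes, stood at 1.12 and 0.0490 RPKM. With cadmium EPCAM rose by 1.36 on the log2 scale (edgeR adjusted p = 0.0131), to 2.85 RPKM, and CDH1 stood at 0.172 RPKM, a log2 difference of 1.45 that did not pass (adjusted p = 0.0944). KRT5, KRT14 and TP63 had 3 reads or fewer in every library. The same held for 4 of 7 leukocyte, 3 of 5 endothelial and 2 of 6 fibroblast genes. Of 2 collagen genes in the fibroblast list, COL1A1 stood at a mean of 582 RPKM in the controls and COL1A2 at 0.275 RPKM. Summed over each marker list, the leukocyte genes ranged from 30.9 to 31.6 RPKM in the controls and from 43.9 to 47.7 RPKM with cadmium, and the endothelial genes from 0.245 to 0.270 and from 0.699 to 0.803 RPKM. The fibroblast genes ranged from 548 to 669 and from 490 to 522 RPKM, and the 12 airway epithelial genes from 716 to 845 and from 716 to 741 RPKM. COL1A1 made up most of the fibroblast sums, at 644 and 520 RPKM in the controls and 493 and 458 RPKM with cadmium. An edgeR adjusted p under 0.05 was found for 3 of 8 tested airway epithelial, 2 of 3 leukocyte, 1 of 1 endothelial and 0 of 3 fibroblast genes. Across all tested genes 7.66% were lower and 8.85% higher by that rule. Among nuclear-retained RNAs that also serve as signs of RNA quality, MALAT1 rose by 0.87 (edgeR adjusted p = 0.00188) and NEAT1 by 0.59 (adjusted p = 0.0228) on the log2 scale. KCNQ1OT1 had a log2 difference of 0.88 with overlapping groups that did not pass (adjusted p = 0.238), and MEG3 had 0 reads in every library. The part of any of these in the results on the proteasome was not tested.

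The interferon and antioxidant elements carried by some of these genes are shown first, because interferon and NFE2L1 are known to act on proteasome genes through such elements. RefSeq promoters of GRCh38.p14, from 250 bases before to 50 bases after the annotated start, were found for 42 of the 48 genes (not for PSMA7, PSMB1, PSMB6, PSMB7, PSMD4 and PSMG3). Capitals in the sequences mark every match, on both strands, to the interferon response element (GAAA, any 2 bases, GAAA), the antioxidant response element core TGACNNNGC, the CCAAT box (CCAAT) and the gamma activated site TTCNNNGAA. These are the promoters of PSMB10 (chr16:67936801-67937100, minus strand), PSMG4 (chr6:3258697-3258996, plus strand), PSME1 (chr14:24135944-24136243, plus strand), PSME2 (chr14:24146561-24146860, minus strand) and PSMD9 (chr12:121888540-121888839, plus strand), each read 5′ to 3′ along its gene.
PSMB10: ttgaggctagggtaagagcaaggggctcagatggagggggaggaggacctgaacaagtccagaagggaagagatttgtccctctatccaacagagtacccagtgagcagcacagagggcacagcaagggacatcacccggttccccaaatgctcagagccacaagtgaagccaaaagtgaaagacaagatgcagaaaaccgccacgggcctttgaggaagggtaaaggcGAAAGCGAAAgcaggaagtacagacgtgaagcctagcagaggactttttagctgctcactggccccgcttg
PSMG4: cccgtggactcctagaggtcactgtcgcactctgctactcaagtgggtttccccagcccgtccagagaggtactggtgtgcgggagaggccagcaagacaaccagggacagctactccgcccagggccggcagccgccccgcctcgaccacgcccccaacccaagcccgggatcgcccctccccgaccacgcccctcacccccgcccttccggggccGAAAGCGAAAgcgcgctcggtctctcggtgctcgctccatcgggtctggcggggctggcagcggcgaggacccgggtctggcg
PSME1: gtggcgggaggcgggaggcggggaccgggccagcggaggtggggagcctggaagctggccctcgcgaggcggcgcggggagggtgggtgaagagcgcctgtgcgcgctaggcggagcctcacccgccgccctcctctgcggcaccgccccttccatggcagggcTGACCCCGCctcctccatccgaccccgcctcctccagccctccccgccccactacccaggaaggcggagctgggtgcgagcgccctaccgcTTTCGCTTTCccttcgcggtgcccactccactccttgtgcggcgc
PSME2: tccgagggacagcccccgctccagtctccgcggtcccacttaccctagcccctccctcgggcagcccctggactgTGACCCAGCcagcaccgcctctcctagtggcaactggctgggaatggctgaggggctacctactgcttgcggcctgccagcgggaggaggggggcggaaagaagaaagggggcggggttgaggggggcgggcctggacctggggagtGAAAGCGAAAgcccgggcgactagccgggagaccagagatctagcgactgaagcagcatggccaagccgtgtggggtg
PSMD9: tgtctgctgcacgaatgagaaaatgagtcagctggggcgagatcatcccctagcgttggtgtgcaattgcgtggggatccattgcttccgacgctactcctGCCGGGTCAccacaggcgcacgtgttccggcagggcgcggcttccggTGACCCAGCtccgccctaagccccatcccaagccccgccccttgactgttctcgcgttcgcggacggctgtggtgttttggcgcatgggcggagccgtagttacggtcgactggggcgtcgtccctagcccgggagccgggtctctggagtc
The first 4 share the same letters, GAAAGCGAAA, read on the opposite strand in PSME1. The match begins 21 bases before the annotated start in PSMB10, 33 before it in PSMG4 and 28 before it in PSME2, and lies 5 bases after it in PSME1. This exact element was chosen after the search, and 30 of 27305 promoters (0.110%) hold it, as do 21 of the 9982 promoters of tested genes (0.21%). An interferon response element of any spacer letters was found in 6 of 42 member promoters (14.3%), against 3.65% of all promoters and 2.86% of those of tested genes. The antioxidant core was found in 13 of 42 (31.0%), against 13.6% of all promoters. PSMD9 holds it at 2 places, as does PSMD3, which did not pass with edgeR. CCAAT boxes were found in 45.2% of member promoters, against 35.7% of all and 36.4% of those of tested genes. The gamma activated site was found in 11.9%, against 7.88% and 6.33%. Among the 11 members with a promoter that fell with cadmium, as described next, 4 (36.4%) hold the antioxidant core, against 9 of the 29 other tested members (31.0%). The interferon element stands in 3 of those 11 and in 3 of those 29. A match of letters is a description and not a site of binding.

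Most proteasome genes had slightly lower RNA levels in the cadmium libraries. Summed over all 48 genes, proteasome transcripts made up 1.22% and 1.25% of all RPKM (reads scaled to transcript length and library size, as deposited) in control libraries, against 1.05% and 1.11% in cadmium libraries, so that both cadmium libraries lay below both controls. In bulk RNA, fewer cells with a transcript and less of it per cell cannot be told apart. Of 46 members with enough reads to be tested, 15 fell, 0 rose and 31 did not pass (edgeR quasi-likelihood test, Benjamini-Hochberg adjusted p under 0.05 over 13663 genes). Across all tested genes 7.66% were lower and 8.85% higher by the same rule. The count of risen members was also 0 at an unadjusted p under 0.05, with DESeq2 and with limma-voom, whereas 30 members were lower at an unadjusted p under 0.05. At that unadjusted threshold 16.7% of all tested genes were lower and 17.3% higher. The median log2 difference over the tested members was -0.26, a median difference of -16.7%, beside 0.0019 over all tested genes, and 44 of the 46 values were negative, as were 49.8% of all tested genes. In 37 members both cadmium libraries lay below both controls in CPM (reads scaled to library size with TMM factors), and in 0 both lay above, against 30.8% and 31.3% of all tested genes. The remaining 9 members had overlapping groups.

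**Figure D1:**
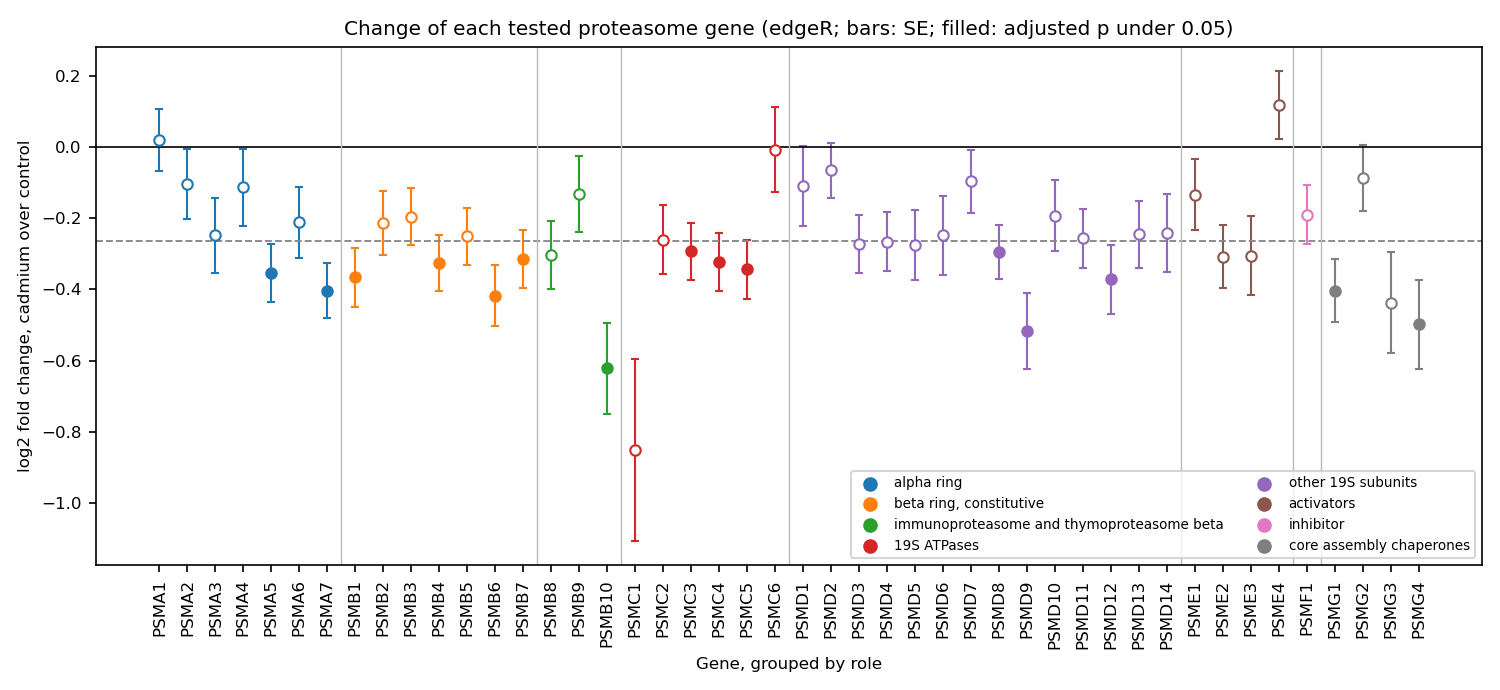
Log2 fold change of each tested proteasome gene, cadmium over control, with genes grouped by role on the horizontal axis. Bars are the SE from 2 libraries per group, filled points have an adjusted p under 0.05, and the dashed line is the median of -0.26. The points of 44 genes lie below 0 and those of PSMA1 and PSME4 lie above it.

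The number of fallen members changed when a library was left out: it was 2 without cadmium replicate 1 (PSMB10 and PSMD9) and 1 without cadmium replicate 2 (PSMB6), when 1.73% and 2.08% of all genes were lower. In these fits the lone cadmium library was assumed to vary like the controls, while the members' median was -0.20 and -0.31, beside -0.26 with all libraries. The count was 9 with library size alone (4.99% of all genes lower) and 7 with scaling that depends on level (6 of the 15, and PSMC1), where 5.29% of all genes were lower and the members' median was -0.18. It was 23 with no filter on low counts (8.09% of all genes lower). Over all 13663 tested genes the log2 fold change had a Spearman rho of -0.44 with the control RPKM, as a description across genes, and the proteasome genes are abundant. Within the 46 members the same rho was -0.12. The control libraries enter both quantities, so that noise in them alone can make rho negative. The part of the relation over all genes in the members' values was not tested beyond the scaling that depends on level.

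The adjusted p of the authors' deposited table covers 12807 genes, a number inferred here from its p-values and adjusted p-values. That table lists 16 members as lower and 0 as higher at an adjusted p under 0.05, where 7.79% of those genes are lower and 7.68% higher. The 16 are the 15 members above and PSMD3 (log2 ratio -0.26, adjusted p 0.0466 in the authors' deposited table). PSMD3, a scaffold subunit of the lid, had an adjusted p of 0.0559 with edgeR.

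The levels of the members differed far more between genes than between groups. In the controls they spanned from a mean of 2.63 RPKM for PSMC1 to 413 RPKM for PSMB6, with a median of 62.2 RPKM over the tested members, and 55.5 RPKM with cadmium. Their order was nearly the same in both groups (Spearman rho 0.99 over the 46 genes, a description of values that share their libraries). PSMA8, the testis form of an alpha subunit, had 0 reads in every library, which allows up to 0.113 CPM in control replicate 1 and 0.3485 CPM in control replicate 2 (3 reads each). PSMB11, the catalytic subunit of the thymus proteasome, had 1 read, in cadmium replicate 2. Such limits cover counting error only. RPKM depends on the length of the gene model used: the reads per RPKM unit imply a transcript 4.39 times as long for PSMA5 and 5.42 times as long for PSMB2 as for PSMB6, and 1.20 times for PSMA7.

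**Figure D2:**
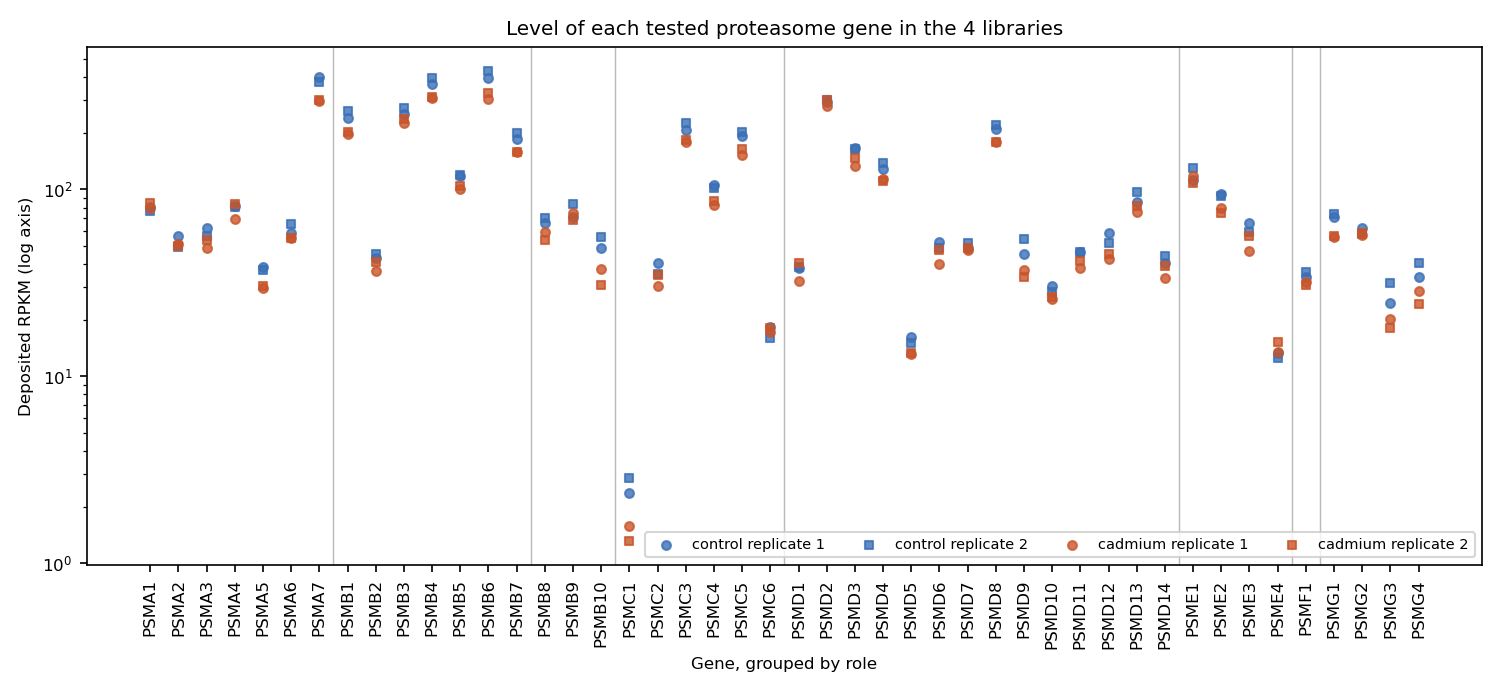
Deposited RPKM of each tested proteasome gene in the 4 libraries on a log axis, with genes grouped by role, circles for replicate 1 and squares for replicate 2. Cadmium libraries lie slightly below the controls for most genes, while the genes themselves span from PSMC1 at a control mean of 2.63 RPKM to PSMB6 at 413 RPKM.

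The alpha ring forms the gate of the core. Of its 7 tested genes 2 fell (PSMA5 and PSMA7), 0 rose and 5 did not pass, with a median log2 difference of -0.21. PSMA7 (chromosome 20, 60711784 to 60718514 in hg19) stood at 471 and 446 CPM in control and at 341 and 353 CPM in cadmium libraries. The groups did not overlap, and PSMA7 fell by 0.40 in log2 units (SE 0.077, adjusted p = 0.0135), a difference of -24.4%. Per length it was the highest member of the alpha ring, at 387 ± 14.9 RPKM in control and 299 ± 4.38 RPKM with cadmium (SD, n = 2). PSMA5 stood at 168 and 161 CPM in control and at 126 and 131 CPM in cadmium libraries, and fell by 0.35 (SE 0.082, adjusted p = 0.0241). In contrast, the libraries of PSMA1 overlapped, at 115 and 109 CPM against 110 and 118 CPM, with a log2 difference of 0.020 (SE 0.088). PSMA1 turned to -0.027 without control replicate 2 and to -0.031 without cadmium replicate 2. The groups also overlapped for PSMA2 and PSMA4, whose log2 differences were -0.10 and -0.11, and did not overlap for PSMA3 (-0.25) and PSMA6 (-0.21). PSMA2 turned to 0.0036 without control replicate 1 and PSMA4 to 0.030 without cadmium replicate 1. PSMA5 did not pass with level-dependent scaling, and neither PSMA5 nor PSMA7 passed without either cadmium library.

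The constitutive beta ring holds the catalytic subunits PSMB5, PSMB6 and PSMB7 beside 4 structural ones. All 7 genes lay lower in both cadmium libraries than in both controls, as did 30.8% of all tested genes. Of the 7, PSMB1, PSMB4, PSMB6 and PSMB7 fell, 0 rose and 3 did not pass, with a median log2 difference of -0.31. Of all tested genes 7.66% were lower by that rule. PSMB6 (chromosome 17, 4699440 to 4701798 in hg19), the caspase-like catalytic subunit, stood at 389 and 428 CPM in control and at 293 and 318 CPM in cadmium libraries. It fell by 0.42 in log2 units (SE 0.086, adjusted p = 0.0169), a difference of -25.1%, and had the highest RPKM of all members in the controls. PSMB7, the trypsin-like subunit, stood at 217 and 235 CPM in control and at 180 and 183 CPM in cadmium libraries, and fell by 0.31 (SE 0.081, adjusted p = 0.0352). PSMB5, the chymotrypsin-like subunit that proteasome inhibitors bind, stood at 177 CPM in both controls and at 146 and 151 CPM with cadmium. Its log2 difference of -0.25 (SE 0.079) did not pass (adjusted p = 0.0641), although the groups did not overlap. Among the structural subunits, PSMB1 fell by 0.37, from 255 and 278 CPM to 202 and 211 CPM, and PSMB4 by 0.33, from 389 and 420 CPM to 320 and 325 CPM. PSMB2 and PSMB3 had log2 fold changes of -0.21 and -0.20 that did not pass. The 4 calls did not survive level-dependent scaling except that of PSMB6 (log2 fold change -0.31, adjusted p = 0.0441). PSMB4 and PSMB7 did not pass with library size alone or without either cadmium library, PSMB7 not with the replicate block, PSMB1 not without either cadmium library, and PSMB6 not without cadmium replicate 1 (adjusted p = 0.127).

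The immunoproteasome subunits PSMB8, PSMB9 and PSMB10 take the places of PSMB5, PSMB6 and PSMB7 in cells exposed to interferon. All 3 were expressed, at 68.0, 77.4 and 52.1 RPKM in the controls. PSMB10 (chromosome 16, 67968408 to 67970780 in hg19) had the largest drop of any member that passed. It stood at 55.8 and 64.6 CPM in control and at 42.4 and 35.2 CPM in cadmium libraries, without overlap, and fell by 0.62 in log2 units (SE 0.13, adjusted p = 0.0166), a difference of -35.0%. PSMB8 stood at 86.5 and 92.9 CPM in control and at 75.8 and 69.2 CPM in cadmium libraries, a log2 difference of -0.30 that missed the threshold (SE 0.096, adjusted p = 0.0639). PSMB9 overlapped between groups, with 85.6 and 101 CPM against 87.8 and 81.2 CPM and a log2 difference of -0.13 (SE 0.11, adjusted p = 0.419). Without control replicate 1 the PSMB9 value was -0.25, and without control replicate 2 it was -0.025. PSMB8 and PSMB9 lie near each other on chromosome 6, and the row of PSMB8 overlaps that of the antisense RNA TAPSAR1, whose reads cannot be told apart where strand was not used. PSMB10 did not pass without cadmium replicate 2 (adjusted p = 0.0814).

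Set against the constitutive subunit that each replaces, 1 immunoproteasome gene lay lower, 1 higher and 1 in between. The ratio of PSMB10 to PSMB7 in RPKM was 0.260 and 0.278 in the controls and 0.237 and 0.194 with cadmium. Both cadmium libraries lay below both controls, with a log2 difference of -0.32 (exact two-sided permutation p = 0.333). The ratio of PSMB9 to PSMB6 was 0.181 and 0.193 in the controls and 0.246 and 0.210 with cadmium, above both controls, with a log2 difference of 0.28 (exact two-sided permutation p = 0.333). The ratio of PSMB8 to PSMB5 overlapped, at 0.556 and 0.588 against 0.583 and 0.517, with a log2 difference of -0.059 (exact two-sided permutation p = 0.667). With 2 libraries against 2 the smallest p this test can give is 0.333, so none of the 3 ratios could pass. Adjusted over the 3 ratios, the exact p was 0.5 for PSMB10 and PSMB9 and 0.667 for PSMB8. Without cadmium replicate 2 the PSMB10 difference was -0.18 and the PSMB8 difference turned to 0.027, and without cadmium replicate 1 the PSMB9 difference was 0.17.

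**Figure D3:**
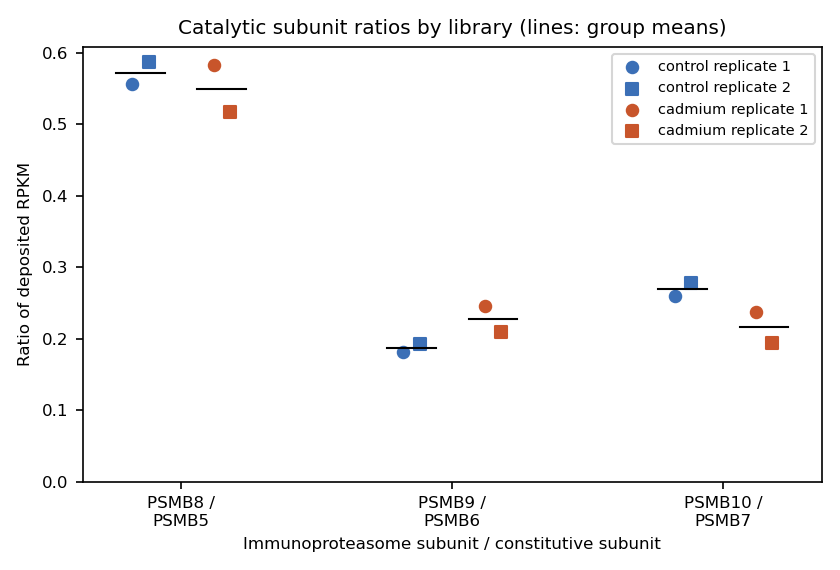
Ratio of the deposited RPKM of each immunoproteasome catalytic subunit to the constitutive subunit it replaces, one point per library, with lines at the group means of 2 libraries. PSMB10 over PSMB7 is lower in both cadmium libraries, PSMB9 over PSMB6 is higher in both, and PSMB8 over PSMB5 overlaps between 0.517 and 0.588.

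The 6 ATPases PSMC1 to PSMC6 form the ring of the cap that unfolds substrates. PSMC3, PSMC4 and PSMC5 fell, 0 rose and 3 did not pass, with a median log2 difference of -0.31. PSMC5 stood at 304 and 320 CPM in control and at 235 and 257 CPM in cadmium libraries, and fell by 0.34 (SE 0.082, adjusted p = 0.0272). PSMC4 stood at 227 and 218 CPM against 173 and 184 CPM and fell by 0.32 (adjusted p = 0.0314). PSMC3 stood at 378 and 411 CPM against 318 and 326 CPM and fell by 0.29 (adjusted p = 0.0412). In these 3 genes the groups did not overlap. PSMC2 had a log2 difference of -0.26 that missed the threshold (adjusted p = 0.0981). Without control replicate 2 PSMC2 passed (-0.32, adjusted p = 0.0331), and without cadmium replicate 1 it was -0.17. PSMC6 stood at 33.6 and 29.3 CPM against 30.6 and 32.6 CPM, with overlap and a log2 difference of -0.0084 that turned positive under 6 of the alternatives run, up to 0.10 without control replicate 1. None of the 3 calls held with level-dependent scaling or without either cadmium library, PSMC3 and PSMC4 did not pass with library size alone, and PSMC3 did not pass with the replicate block, the stricter filter or without control replicate 2, nor PSMC4 without control replicate 1.

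PSMC1 stood apart from the other ATPases in level. It drew 113 and 44 control reads and 86 and 37 cadmium reads, or 4.34 and 5.23 CPM against 2.81 and 2.34 CPM, so that the groups did not overlap. Its mean of 2.63 RPKM in the controls compares with 17.2 RPKM for PSMC6 and with 37.9 to 218 RPKM for the other 4 ATPases. The log2 difference of -0.85 (SE 0.26) was the lowest of all members and did not pass (adjusted p = 0.0545). It passed with level-dependent scaling (adjusted p = 0.0306) and with no filter (adjusted p = 0.0350). Of the 50-base words in its coding sequence, 98.7% also occur in at least 1 of 11 pseudogenes annotated in GENCODE 29 (GRCh38, used for sequence only). For PSMC6, the next lowest ATPase, the share was 45.6%, with 3 pseudogenes, and for the other 4 ATPases it was at most 2.76%. How reads that match several places were counted is not given in the sources used here, so the levels of PSMC1 and PSMC6 are uncertain, and the part of the pseudogenes in them was not tested.

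**Figure D4:**
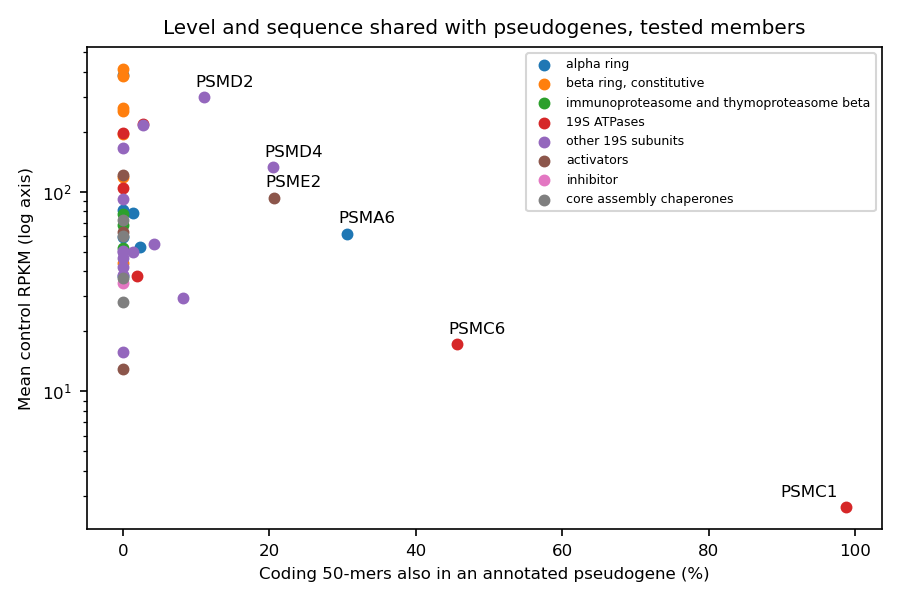
Mean control RPKM (log axis) of each tested member against the share of 50-base words of its coding sequence that also occur in an annotated pseudogene, with colours for role. Only the 6 named genes share more than 10%, and PSMC1, at 98.7%, has the lowest level of 2.63 RPKM.

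Over the whole family, 34 of 48 genes share no such word with a pseudogene. The 32 tested genes among them had a median log2 difference of -0.27, with 12 lower and 0 higher. Besides PSMC1 and PSMC6, the genes PSMA6 (30.6%), PSME2 (20.6%), PSMD4 (20.5%) and PSMD2 (11.1%) share more than 10%. Rows of other genes overlap those of 7 members in hg19, among them FLJ31306 for PSMA3, HTR2B for PSMD1 and EMC9 for PSME1. Members were spread over 17 chromosomes, with 8 on chromosome 14 and 7 on chromosome 17. On chromosome 14, PSMB5 (23495061 to 23504429 in hg19) and PSMB11 (23511377 to 23513269) are close neighbours, as are PSME1 (24605368 to 24608176) and PSME2 (24612575 to 24615855).

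The 14 genes PSMD1 to PSMD14 encode the other cap subunits, which bind ubiquitin and remove it, and helpers of cap assembly. All 14 had negative log2 fold changes, with a median of -0.25. PSMD8, PSMD9 and PSMD12 fell, 0 rose and 11 did not pass. PSMD9, a chaperone of cap assembly, stood at 123 and 147 CPM in control and at 97.5 and 90.0 CPM in cadmium libraries. It fell by 0.52 in log2 units (SE 0.11, adjusted p = 0.0174), a difference of -30.1%, the next largest drop after PSMB10 among members that passed. PSMD12, a lid scaffold subunit, stood at 118 and 105 CPM against 83.7 and 89.5 CPM and fell by 0.37 (SE 0.097, adjusted p = 0.0356). PSMD8, another lid subunit, stood at 371 and 391 CPM against 309 and 312 CPM and fell by 0.29 (SE 0.076, adjusted p = 0.0349). The groups did not overlap in any of the 3. The cap scaffold PSMD2 had the highest level of the 14, at 298 RPKM in the controls and 291 RPKM with cadmium, and its libraries overlapped, with 1040 and 1060 CPM against 959 and 1040 CPM. Its log2 difference of -0.065 (SE 0.077, adjusted p = 0.597) turned to 0.059 with level-dependent scaling. PSMD1, the other large scaffold, overlapped too (log2 fold change -0.11, or 0.047 without cadmium replicate 1). The deubiquitinase PSMD14 and the ubiquitin receptor PSMD4 had log2 fold changes of -0.24 and -0.27 (adjusted p = 0.163 and 0.0592), with no overlap between groups. PSMD14 was -0.12 without cadmium replicate 1 and -0.36 without cadmium replicate 2, and PSMD4 passed without control replicate 1 (adjusted p = 0.0372). PSMD9 held under scaling alternatives and did not pass without cadmium replicate 2 (adjusted p = 0.0722). PSMD8 and PSMD12 did not pass with library size alone, with level-dependent scaling or without either cadmium library, PSMD8 not with the replicate block or the stricter filter, and PSMD12 not without control replicate 1.

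Activators can replace or accompany the cap at the ends of the core. None of PSME1 to PSME4 passed with edgeR, 2 had an unadjusted p under 0.05, 0 passed with DESeq2 and 1, PSME2, with limma-voom. PSME1 and PSME2, the interferon-induced partners in the PA28 activator, had the following values. PSME2 stood at 90.5 and 87.3 CPM in control and at 73.6 and 70.1 CPM in cadmium libraries, with no overlap and a log2 difference of -0.31 that lay at the threshold (SE 0.090, adjusted p = 0.05 when rounded) without passing. Leaving out control replicate 2 let PSME2 pass (adjusted p = 0.0264), as did testing without a filter (adjusted p = 0.0313). PSME1 overlapped, at 128 and 149 CPM against 131 and 121 CPM, with a log2 difference of -0.13 (adjusted p = 0.384), which was -0.24 without control replicate 1 and -0.033 without control replicate 2. Whether PSME1 and PSME2 differ from each other was not tested. PSME3, the nuclear activator, stood at 262 and 232 CPM against 181 and 220 CPM, with no overlap and a log2 difference of -0.31 (adjusted p = 0.0927). Left-out libraries moved PSME3 from -0.17 without cadmium replicate 1 to -0.45 without cadmium replicate 2, and it passed without control replicate 2 (-0.40, adjusted p = 0.0180). PSME4, also a nuclear activator, was with PSMA1 1 of the 2 members with a positive value. It stood at 108 and 103 CPM against 107 and 122 CPM, with overlap and a log2 difference of 0.12 (SE 0.096, adjusted p = 0.430), or 0.22 without cadmium replicate 1 and 0.023 without cadmium replicate 2. PSMF1, an inhibitor of the core, stood at 144 and 154 CPM against 132 and 129 CPM, with no overlap and a log2 difference of -0.19 that missed the threshold (adjusted p = 0.148).

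The chaperones PSMG1 to PSMG4 help alpha subunits to assemble into the ring and leave before the core matures. In all 4 genes both cadmium libraries lay below both controls, as in 30.8% of all tested genes. In PSMG2 the gap was narrow, at 74.3 against 74.7 CPM. The median log2 difference of the 4 chaperones, -0.42, was the lowest of the role groups, a description of 4 genes. PSMG1 and PSMG4 fell, 0 rose and 2 did not pass. PSMG4 stood at 32.7 and 35.4 CPM in control and at 25.6 and 22.2 CPM in cadmium libraries, and fell by 0.50 (SE 0.12, adjusted p = 0.0315), a difference of -29.2%. PSMG1 stood at 89.1 and 92.2 CPM against 68.0 and 68.9 CPM and fell by 0.40 (SE 0.088, adjusted p = 0.0204). Its partner PSMG2 stood at 80.3 and 74.7 CPM against 72.0 and 74.3 CPM, close together, with a log2 difference of -0.088 (adjusted p = 0.545), which was -0.033 without control replicate 1 and -0.145 without control replicate 2. PSMG3, the partner of PSMG4, stood at 29.1 and 36.7 CPM against 25.1 and 22.8 CPM, with a log2 difference of -0.44 that missed the threshold (SE 0.14, adjusted p = 0.0685). PSMG3 passed without control replicate 1 (-0.61, adjusted p = 0.0147) and was -0.28 without control replicate 2. PSMG1 and PSMG4 passed under each scaling and filter tried and did not pass without either cadmium library (adjusted p from 0.0872 to 0.217).

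Of 34 other genes that serve the proteasome, 3 fell, 1 rose and 30 did not pass, with a median log2 difference of -0.12. The shares of 8.82% lower and 2.94% higher stand beside 7.66% and 8.85% of all tested genes, so that the share lower by this rule was near the background. By other measures more helpers lay lower. Negative values were found in 24 of 34, against 49.8% of all tested genes. In 18 both cadmium libraries lay below both controls and in 4 above, against 30.8% and 31.3%. At an unadjusted p under 0.05 (edgeR), 10 were lower and 2 higher, against 16.7% and 17.3%. ADRM1, which encodes a ubiquitin receptor of the cap, stood at 274 and 287 CPM against 197 and 213 CPM, and fell by 0.45 in log2 units (SE 0.082, adjusted p = 0.0121). VCP, the segregase that extracts ubiquitinated proteins, fell by 0.29 (adjusted p = 0.0365), and its cofactor NPLOC4 by 0.33 (adjusted p = 0.0395). UBB, which encodes polyubiquitin, had a log2 difference of -0.11 (adjusted p = 0.330), which was 0.0075 with level-dependent scaling. NFE2L1 had a log2 difference of 0.015 (SE 0.097, adjusted p = 0.934), and turned negative without control replicate 1 (-0.076) and without cadmium replicate 1 (-0.080). NFE2L2, its relative that governs antioxidant genes, had -0.10 (adjusted p = 0.479), and the core chaperone POMP -0.11 (adjusted p = 0.558), or 0.076 without control replicate 1. ZFAND2A, known as a gene that arsenite induces and whose product binds the cap, had -0.38 (SE 0.17, adjusted p = 0.145). ADRM1 did not pass without cadmium replicate 1 (adjusted p = 0.0910), and VCP and NPLOC4 did not pass with library size alone, level-dependent scaling, the stricter filter or without either cadmium library, VCP also not with the replicate block and NPLOC4 not without control replicate 2.

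Of 22 genes of antigen processing and interferon signalling, which share regulators with the immunoproteasome, 2 fell, 0 rose and 20 did not pass, with a median log2 difference of -0.066. The share lower, 9.09%, was near the 7.66% of all tested genes. By the other tools 0 rose as well. At an unadjusted p under 0.05 (edgeR), 5 were lower and 3 higher, against 16.7% and 17.3% of all tested genes. In 7 both cadmium libraries lay below both controls and in 4 above, against 30.8% and 31.3%. IRF9, the DNA-binding part of the interferon-activated complex, fell by 0.71 (SE 0.14, adjusted p = 0.0141). TAP1, a peptide transporter encoded next to PSMB9, had a log2 difference of -0.051 (adjusted p = 0.754), and IRF1, an activator of immunoproteasome genes, had -0.29 (adjusted p = 0.0736). IRF9 did not pass without cadmium replicate 1 (adjusted p = 0.0676).

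**Figure D5:**
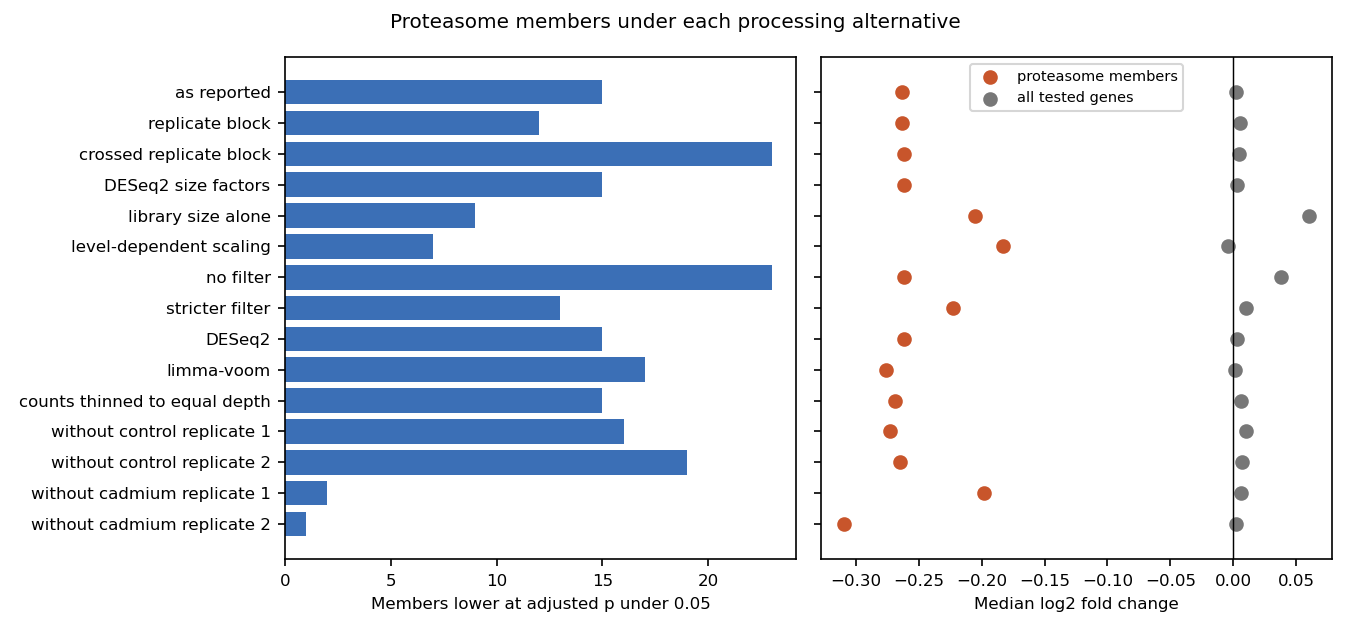
Members called lower (left, bars) and median log2 difference of members and of all tested genes (right, points) as reported and under each alternative. The members' median stays between -0.31 and -0.18 while the count of lower members runs from 1 to 23.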

How the data were processed

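RNA of 2 control and 2 cadmium libraries was measured. Libraries were made from column-purified total RNA with a TruSeq kit, per the labels' protocols. Named in the submitters' processing notes are STAR 2.4, DESeq, DESeq2 and the build hg19, without roles. Not given in the sources used here: counter, annotation release and strand setting. Whole-number counts per RefSeq gene and RPKM were deposited by library, per the file headers. A deposited comparison table of the authors holds mean RPKM, a log2 ratio and p-values. Rows were joined by RefSeq identifier. Members and lists were chosen with earlier results of these data known.

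Counts were tested with edgeR 4.0.16 in R 4.3.3 (filterByExpr, TMM, group alone, robust glmQLFit and glmQLFTest), and adjusted p-values are edgeR's over all 13663 tested genes unless another tool is named. The SE of each log2 difference comes from its F statistic. Replicates varied beyond sampling noise (mean chi-square per gene of 11.8 (controls) and 7.75 (cadmium) on 1 degree of freedom). Reads assigned to genes ranged from 8609243 to 29937242, so that 3 reads equal 0.3485 to 0.100 CPM. Alternatives were DESeq2 1.42.0, limma 3.58.1 (voom), other scalings and filters, a replicate block, thinning to equal depth and leaving out each library. Named genes were members passing the test, the largest change and highest level of each role, the paired catalytic subunits, activators and inhibitor, and up to 6 passing genes of each other list with 7 always named; 2 genes that this rule names are not reported here. Other genes named were chosen after their values were seen.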

Additional observations from a re-analysis of the deposited data

How the results depend on the processing

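The direction of the members' median and the absence of risen members held under every alternative run, while the number of fallen members did not. The number of all tested genes lower was 682 with library size alone. Fallen members numbered 9 with library size alone, 7 with level-dependent scaling and 23 with no filter. The members' median was -0.205 with library size alone, -0.183 with level-dependent scaling and -0.223 under the stricter filter. Risen helpers numbered 2 with each of library size alone, level-dependent scaling, no filter and the stricter filter. Fallen helpers numbered 1 with library size alone, level-dependent scaling and the stricter filter, and 5 with no filter and limma-voom. Leaving out 1 library gave from 369 to 1977 (all tested genes higher) and from 235 to 1791 (all tested genes lower), from 1 to 19 fallen members with a median from -0.309 to -0.198, from 0 to 2 risen and from 0 to 4 fallen helpers, and log2 differences from -0.145 to 0.0266 for the PSMB8 over PSMB5 ratio, from 0.166 to 0.397 for the PSMB9 over PSMB6 ratio and from -0.466 to -0.179 for the PSMB10 over PSMB7 ratio. In each of these the cause was not tested, and a fit without 1 library also rests on fewer samples.

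In the labels, same-numbered libraries shared only a number. Replicate 1 minus replicate 2 had a correlation of -0.14 between the groups over 13663 genes, which cannot tell whether the libraries were paired. With the replicate block 12 members were lower, 12 of them among the 15 (PSMB7, PSMC3 and PSMD8 did not pass). A crossed replicate block, added after that correlation was seen, gave 23 lower members, where 10.8% of all tested genes were lower, and 3 risen and 5 fallen helpers.

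Reversed signs occurred in values near 0: PSMA1 (-0.0267 and -0.0305 without control replicate 2 and cadmium replicate 2), PSMA2 (0.00359 without control replicate 1), PSMA4 and PSMD1 (0.0303 and 0.0472 without cadmium replicate 1), PSMD2 and UBB (0.0589 and 0.0075 with level-dependent scaling), NFE2L1 (-0.0756 and -0.0804 without control replicate 1 and cadmium replicate 1) and POMP (0.0761 without control replicate 1). The other ends of their ranges over left-out libraries were 0.0772 for PSMA1, -0.202 for PSMA2, -0.259 for PSMA4, -0.274 for PSMD1, 0.11 for NFE2L1 and -0.271 for POMP. PSMC6 was 0.0496 with library size alone, 0.0294 under the stricter filter, 0.0378 with thinned counts, 0.00332 with the crossed replicate block, and 0.102 and 0.0468 without control replicate 1 and cadmium replicate 1 (-0.103 without control replicate 2). Of 597 member values under the alternatives other than the crossed block, 517 kept direction and call, 50 lost the call, 19 gained it and 11 reversed.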
